A study of Mus musculus with 52 samples.

Results

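H3K4 methylation was examined over 10 genes of the S100 calcium-binding protein family in immortalized mouse embryonic fibroblasts (MEFs) with and without MLL2. The 10 genes, S100b, S100a1, S100a3, S100a4, S100a6, S100a8, S100a10, S100a11, S100a13, and S100a16, were taken by their symbols out of 23043 genes in the RPKM tables, with the longest transcript of each. They were selected on the RPKM of H3K4me2, in which S100b had less in FC/FC cells than in F/F cells, so the H3K4me2 values of S100b below are a description and carry no test. S100b lies on chromosome 10, and the other 9 genes lie on chromosome 3. H3K4me1, H3K4me2, and H3K4me3 were each mapped by ChIP-seq in 3 F/F and 3 FC/FC libraries, 18 in all. F/F cells carried loxP sites in both alleles of the gene for MLL2 (Kmt2d), an H3K4 methyltransferase, and were not given tamoxifen. FC/FC cells were the same immortalized line after 24 h of tamoxifen, which excised both alleles, and were grown on before harvest. Tamoxifen and genotype therefore go together in every comparison and cannot be told apart. All cells came from 1 immortalized line, and each library is called by the number in its label.

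S100 proteins are small calcium-binding proteins with EF-hand motifs, found in vertebrates. Most of them form dimers, open a binding surface when calcium is bound, and attach to target proteins such as annexins, and several are also secreted and bind receptors such as RAGE (Ager) and TLR4. Most mammalian S100 genes sit in a cluster next to the epidermal differentiation genes, which on the mouse genome is on chromosome 3, whereas S100b sits apart. Each family member has its own set of cell types: S100b is best known from glia and melanocytes, S100a4 from fibroblasts, and S100a8 from myeloid cells. H3K4me3 marks the start of active genes, H3K4me1 marks enhancers and the flanks of promoters, and H3K4me2 is found at both.

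Levels are given as RPKM, the reads over a transcript extended by 500 bp on each side. These levels are scaled to that length in kilobases and to the reads of the library over all listed transcripts. They are averages over the extended transcript, which ran from 1964 bp (S100a8) to 11147 bp (S100a13). A mark confined to the start of a gene is thus diluted in a long transcript, which limits comparisons between genes. In library NGS-6279, S100a11 had 3353 H3K4me3 reads and S100a4 had 2511, although S100a4 had the higher RPKM. Each value is also a share of its own library's reads over the listed transcripts, and a change over the whole genome would not be seen. The libraries held 26714377 to 49990775 reads over the listed transcripts, and the reads behind a single value of a member ran from 10 (S100a8, H3K4me3) to 5589 (S100a6, H3K4me3). No pair of libraries was identical. In a bulk population, fewer cells with a mark and less of the mark per cell cannot be told apart. For NGS-6282, an H3K4me2 library of FC/FC cells, the label gives the antibody catalogue number of the H3K4me1 libraries. The H3K4me2 differences, calls, and peak regions of the S100 genes were recomputed without it, as were the calls over all genes. Those of neighbours, other gene lists, and markers were not, and are given only with it. ChIP libraries do not measure the RNA of the targeted gene, so the excision was not checked here. Differences are FC/FC minus F/F on the scale log2(RPKM + 0.1), which understates the change of genes with low levels. A gene was tested for a mark where 3 or more of the mark's 6 libraries were above 1 RPKM, with limma and Benjamini-Hochberg adjustment over all genes tested for that mark, and was called at an adjusted p under 0.05.

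The regulatory sequences over which the results turn are shown here, taken from RefSeq for GRCm38.p6, whose chromosome coordinates are those of mm10. The S100b promoter and the middle 300 bases of the S100b intron 2 region are shown because the H3K4me2 peaks over them differed between the genotypes, S100a3 because its H3K4me2 was lower in every FC/FC library, S100a4 and S100a8 because they share a TATAAA box at nearly the same place with H3K4me3 levels far apart, and S100a11 for its repeated motifs. Each promoter runs from 250 bases before to 50 bases after the listed start, and capitals mark matches on either strand to the TATA box (TATAAA), to the letters of the CCAAT box, to the GC box (GGGCGG), or to the core of AP-1 sites (TGANTCA).
S100b promoter (chr10:76253586-76253885, + strand): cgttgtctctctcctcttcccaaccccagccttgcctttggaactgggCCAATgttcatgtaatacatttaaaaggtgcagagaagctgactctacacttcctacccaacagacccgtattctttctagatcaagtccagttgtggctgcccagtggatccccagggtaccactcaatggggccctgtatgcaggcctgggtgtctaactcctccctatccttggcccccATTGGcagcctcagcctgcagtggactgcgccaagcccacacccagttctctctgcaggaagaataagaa
S100b intron 2 region, middle (chr10:76258014-76258313, + strand): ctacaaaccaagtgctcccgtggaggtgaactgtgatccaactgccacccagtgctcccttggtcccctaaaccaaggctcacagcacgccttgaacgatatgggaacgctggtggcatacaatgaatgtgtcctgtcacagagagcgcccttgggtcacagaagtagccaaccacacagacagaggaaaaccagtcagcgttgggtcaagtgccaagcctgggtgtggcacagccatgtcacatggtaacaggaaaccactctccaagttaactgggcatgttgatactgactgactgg
S100a3 promoter (chr3:90599964-90600263, + strand): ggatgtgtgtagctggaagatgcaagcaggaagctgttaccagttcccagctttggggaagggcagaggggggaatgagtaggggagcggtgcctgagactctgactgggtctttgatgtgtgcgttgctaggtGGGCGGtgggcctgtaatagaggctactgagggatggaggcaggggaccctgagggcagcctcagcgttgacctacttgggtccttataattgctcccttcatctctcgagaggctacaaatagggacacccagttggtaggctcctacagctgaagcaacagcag
S100a4 promoter (chr3:90603520-90603819, + strand): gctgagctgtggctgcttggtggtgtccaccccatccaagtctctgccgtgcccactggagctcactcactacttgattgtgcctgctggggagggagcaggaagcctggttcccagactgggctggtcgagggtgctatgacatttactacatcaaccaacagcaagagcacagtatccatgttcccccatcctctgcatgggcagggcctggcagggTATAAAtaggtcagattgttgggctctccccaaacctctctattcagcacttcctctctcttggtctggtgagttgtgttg
S100a8 promoter (chr3:90668821-90669120, + strand): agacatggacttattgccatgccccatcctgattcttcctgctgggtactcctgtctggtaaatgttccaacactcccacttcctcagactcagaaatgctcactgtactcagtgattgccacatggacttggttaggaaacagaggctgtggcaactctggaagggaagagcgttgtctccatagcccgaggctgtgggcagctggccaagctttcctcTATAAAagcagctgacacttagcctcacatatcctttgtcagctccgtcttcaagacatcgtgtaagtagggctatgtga
S100a11 promoter (chr3:93520246-93520545, + strand): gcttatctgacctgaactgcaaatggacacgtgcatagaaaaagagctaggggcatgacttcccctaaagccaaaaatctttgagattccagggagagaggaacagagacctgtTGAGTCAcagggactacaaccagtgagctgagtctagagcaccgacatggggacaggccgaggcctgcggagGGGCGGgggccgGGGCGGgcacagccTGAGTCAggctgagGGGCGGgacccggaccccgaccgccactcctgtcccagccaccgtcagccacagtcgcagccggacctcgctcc

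Of the 10 genes, 9 had a listed promoter, and S100a10 had none. TATAAA was found in 2 of the 9 (S100a4 and S100a8), with the first base at -31 and -30 from their starts, and in 13.6% of the 32851 mouse promoters of the same length. CCAAT was found in 2 (S100b and S100a6) against 37.4%, GGGCGG in 3 (S100a3, S100a11, and S100a16) against 35.7%, and TGANTCA in 2 (S100a11 and S100a16) against 7.81%. The matches did not overlap each other. The S100a11 promoter held 3 GGGCGG and 2 TGAGTCA, and 61.7% of its bases were G or C, against a median of 52.7% over all promoters. The S100b promoter had 53.7% G or C but only 3 CpG, and that of S100a4 had 2 CpG. The ratio of observed to expected CpG was 0.145 for S100b and 0.0871 for S100a4, against a median of 0.384 over all promoters. The S100a1 and S100a13 promoters held no match, and their starts face away from each other, so that their extended transcripts share 896 bp and their reads cannot be fully separated.

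At S100b, a homodimer-forming protein abundant in astrocytes and Schwann cells, H3K4me2 was lower in FC/FC than in F/F. The S100b transcript spans chr10:76253836-76261319 on the + strand, with 3 exons. Its H3K4me2 RPKM was 1.84, 1.58, and 1.42 in the F/F libraries NGS-6278, NGS-6286, and NGS-6294 and 0.808, 0.889, and 0.794 in the FC/FC libraries NGS-6282, NGS-6290, and NGS-6298. The F/F libraries were all above 1 and the FC/FC libraries all below 1, so S100b passed the filter on low values only through F/F. The mean was 1.62 ± 0.214 in F/F and 0.830 ± 0.0512 (SD, n = 3 each), a log2 difference of -0.88 (45.6% lower), and the difference was -0.86 without library NGS-6282.

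The peak lists gave the positions of the mark around S100b. Within 10 kb of S100b, H3K4me2 peaks formed 4 regions over the 6 libraries. An intergenic region upstream, chr10:76245000-76247121, had a peak in all 6 libraries, with scores (-10 times the log10 of the MACS p-value) of 705, 981, and 1427 in F/F and 502, 406, and 276 in FC/FC. The region over the start, chr10:76253132-76254547, which covers exon 1 and the sequence printed above as the S100b promoter, had a peak in 3 F/F libraries (283, 69.0, and 317) and in 1 FC/FC library, NGS-6282 (71.6). A region wholly inside intron 2, chr10:76257510-76258816, had a peak in 3 F/F libraries (158, 114, and 172) and in no FC/FC library. The region at the end of the gene, chr10:76261095-76264565, which begins in exon 3 and runs into the 3′ end of Dip2a, had a peak in all 6 (2356, 2257, and 3100 in F/F, and 1443, 1622, and 2168 in FC/FC). Scores depend on depth, and 3100 is the highest score in the lists. Over the genome, the F/F libraries had 62100 to 70437 H3K4me2 peaks and the FC/FC libraries 56112 to 58585. The intron 2 region is 1307 bp long, with 24 CpG, 2 TATAAA, 1 CCAAT, 1 TGANTCA, and 0 GGGCGG, none of them in its printed middle.

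**Figure D1:**
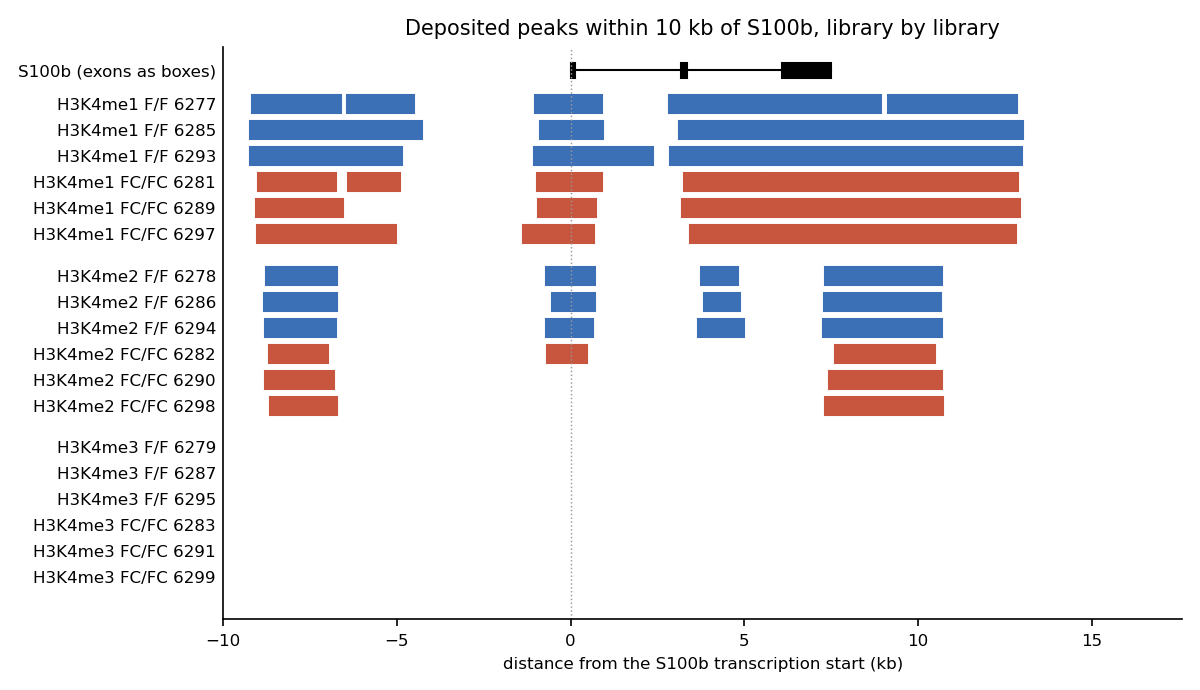
Peaks as deposited within 10 kb of S100b, with distance from the S100b transcription start in kb on the x axis and 1 row for each of the 18 libraries (blue, F/F; red, FC/FC); black boxes are the 3 exons. The H3K4me2 peak in intron 2 is in 3 F/F and no FC/FC libraries, the peak over the start is in 3 F/F and 1 FC/FC libraries, and no library has an H3K4me3 peak.

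Peaks covered 7860, 7735, and 8123 bases of H3K4me2 within 10 kb of S100b in F/F and 5736, 5247, and 5361 in FC/FC. These values belong to the same contrast that chose the gene and were not tested. Of all 52022 H3K4me2 regions within 10 kb of a gene, 1.94% were lost, meaning a peak in each F/F and in no FC/FC library, and 0.0788% were gained, the reverse. Of the 20 such regions near the 10 S100 genes, the intron 2 region of S100b was the only lost one, and 0 were gained. Without library NGS-6282 there were 2, with the region over the S100b start, without library NGS-6298 there were 2, with a region upstream of S100a16, and without library NGS-6278 there were 3, with 2 regions near S100a10.

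H3K4me1, measured in other libraries of the same line, was also lower at S100b. These libraries may come from the same cultures as those of H3K4me2, which chose S100b, so this is not an independent check. The RPKM was 5.54, 5.54, and 5.41 in the F/F libraries NGS-6277, NGS-6285, and NGS-6293 and 4.15, 4.27, and 3.82 in the FC/FC libraries NGS-6281, NGS-6289, and NGS-6297. The groups did not overlap. The log2 difference was -0.42 ± 0.06 (SE), 25.4% lower, with a limma adjusted p = 0.0645, which missed the threshold. After centring on library medians the adjusted p was 0.036, after quantile normalization 0.043, in a single fit of 18 libraries 0.019, with limma-voom on recovered reads 0.0016, and with a block by the order of library numbers 0.025. Under the other settings, which were both pseudocounts, both transcript choices, no trend, and no filter, the adjusted p was 0.057 to 0.122. When 1 library was left out it ran from 0.062 to 0.195, and the log2 difference from -0.46 to -0.38. In F/F cells the H3K4me1 level of S100b was above that of 99.7% of all genes.

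All 3 H3K4me1 regions within 10 kb of S100b had a peak in all 6 libraries, among them a block of 10175 bp, chr10:76256670-76266844, which covers exons 2 and 3, intron 2, and the end of Dip2a. The intron 2 sequence without an H3K4me2 peak in FC/FC thus lay under H3K4me1 peaks in both genotypes. The region over the start had H3K4me1 scores of 553, 211, and 554 in F/F and 223, 183, and 148 in FC/FC. H3K4me1 peaks covered 16210, 16668, and 17924 bases in F/F and 15208, 13899, and 15445 in FC/FC, without overlap between the groups (exact two-sided permutation test, p = 0.1, the smallest that 3 libraries against 3 allow). The mean difference was -2083 bases within 10 kb, -1246 within 5 kb, and -1335 within 20 kb, where the exact p was 0.4.

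H3K4me3 at S100b was low in both genotypes. Its RPKM was 0.483, 0.528, and 0.528 in F/F and 0.421, 0.468, and 0.360 in FC/FC, lower in every FC/FC library but below the filter, so it was not tested (log2 difference -0.25). No library had an H3K4me3 peak within 10 kb of the gene.

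The genes beside S100b had smaller differences. Prmt2, an arginine methyltransferase gene 15971 bp to the left, had H3K4me2 of 2.54 ± 0.0606 in F/F and 2.72 ± 0.0916 in FC/FC (higher in every FC/FC library, limma adjusted p = 0.210), and Dip2a, 1730 bp to the right, had 1.31 ± 0.0393 and 1.27 ± 0.0196 (lower in every FC/FC library, log2 difference -0.05, adjusted p = 0.449). For H3K4me1 the adjusted p was 0.794 for Prmt2 and 0.316 for Dip2a, with log2 differences of 0.03 and -0.11. The next genes outward, Slc5a4a and Pcnt, had log2 differences between -0.13 and 0.10 in the 3 marks. Over the 18 libraries, with each mark centred on its mean, the genes whose values most resembled S100b among 9985 genes tested for H3K4me2 were Ip6k3 (Pearson r = 0.957), Mthfd1l (0.949), Ly6f (0.940), Cplx3 (0.939), and 1700020N01Rik (0.931). These correlations are a description, since the points share libraries and the genotype. Among the members, S100a3 came nearest (r = 0.563) and S100a11 was farthest (-0.526).

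The 9 genes on chromosome 3 formed 2 blocks, 7 between 90511034 and 90670034 and S100a11 and S100a10 between 93520496 and 93564645. In order along the chromosome the 7 are S100a1 and S100a13, which start side by side on opposite strands, then S100a16, S100a3, S100a4, S100a6, and S100a8. The authors marked S100a4, S100a6, S100a10, and S100a11 as actively transcribed, and these 4 had H3K4me3 peaks over their starts in all 6 libraries. S100a1 and S100a13, which were not so marked, also had H3K4me3 peaks over their starts in all 6.

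**Figure D2:**
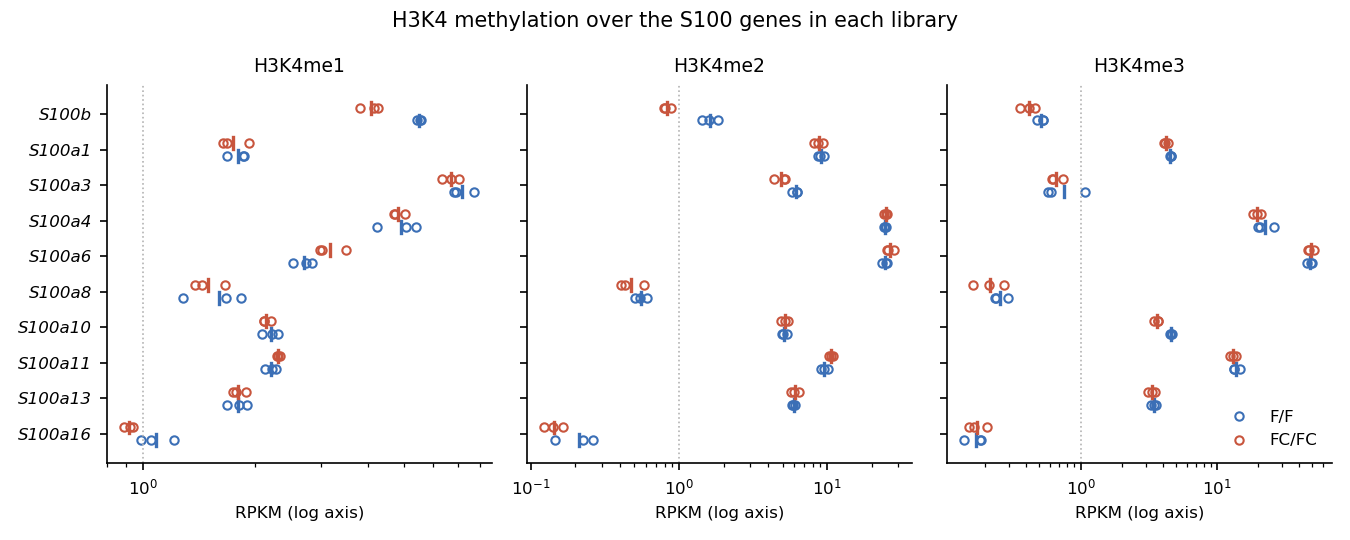
RPKM of each S100 gene (rows) for the 3 marks (log x axes), with 1 circle per library and a bar at the mean of 3 libraries (blue, F/F; red, FC/FC; dotted line, the filter at 1 RPKM). S100b stands apart to the left in FC/FC for H3K4me1 and H3K4me2, and S100a10 for H3K4me3, as S100a3 does for H3K4me2, while S100a6 and S100a11 stand to the right for H3K4me1 and H3K4me2.

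S100a6 (calcyclin), a calcium sensor of proliferating cells, had the highest H3K4me3 of the 10, 48.8, 50.1, and 45.7 in F/F and 46.7, 51.8, and 47.6 in FC/FC, above 99.9% of genes in F/F. S100a4, the fibroblast-specific protein linked to cell motility, had 20.8, 26.1, and 20.01 in F/F and 18.2, 21.1, and 19.6 in FC/FC. S100a11, which binds annexin A1 and takes part in membrane repair, had 13.4, 14.7, and 13.4 in F/F and 12.5, 13.8, and 13.2 in FC/FC. The genotypes overlapped for all 3 genes, and the limma adjusted p was 0.992, 0.990, and 0.990.

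In F/F cells the order of H3K4me3 was S100a6, S100a4, S100a11, S100a10, S100a1, S100a13, S100a3, S100b, S100a8, and S100a16. The means ran from 48.2 to 0.170 RPKM, and only S100a10 and S100a1 overlapped among neighbours in that order. The order depends in part on transcript length, since levels are averages over the transcript. H3K4me2 was highest in S100a6 and S100a4 (24.6 each, overlapping) and lowest in S100a16 (0.211). The order of H3K4me1 was different, with S100a3 (7.15) and S100b (5.50) at the top, followed by S100a4 (4.90), none overlapping with the next. The ratio of H3K4me3 to H3K4me1 in F/F was 17.9 in S100a6 and 1.91 to 6.28 in S100a1, S100a4, S100a10, S100a11, and S100a13, but 0.0933 to 0.161 in S100b, S100a3, S100a8, and S100a16. The median over all genes was 1.09.

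**Figure D3:**
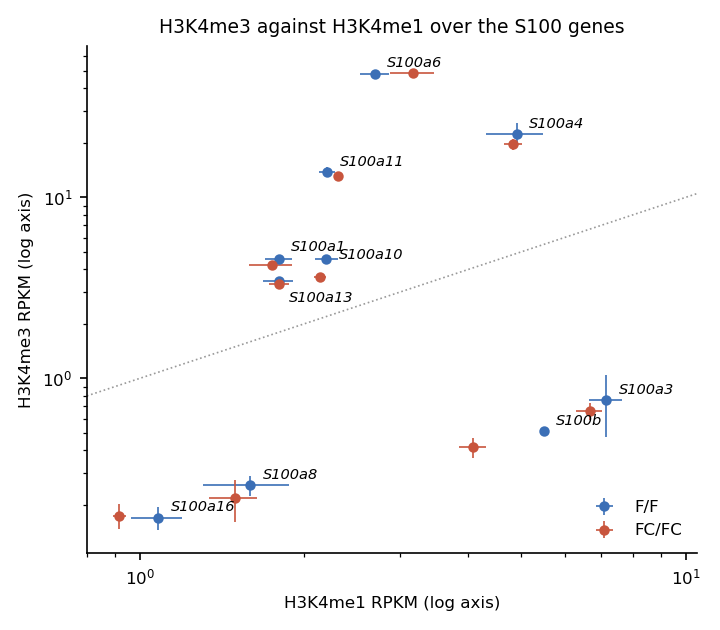
Mean H3K4me3 against mean H3K4me1 RPKM of each S100 gene on log axes, with SD bars over 3 libraries (blue, F/F; red, FC/FC; dotted line, equal values). S100a6, S100a4, S100a11, S100a10, S100a1, and S100a13 lie above the line and S100b, S100a3, S100a8, and S100a16 below it, in both genotypes.

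S100a10, which forms a complex with annexin A2 at the plasma membrane, had lower H3K4me3 in FC/FC. The RPKM was 4.67, 4.51, and 4.57 in the F/F libraries NGS-6279, NGS-6287, and NGS-6295 and 3.68, 3.72, and 3.45 in the FC/FC libraries NGS-6283, NGS-6291, and NGS-6299, with no overlap. The log2 difference was -0.33 ± 0.05 (SE), 20.6% lower, with a limma adjusted p = 0.293, which missed the threshold. In a single fit of 18 libraries the adjusted p was 0.010, and with a block by the order of library numbers 0.044. Under the other settings it was up to 0.512, and when 1 library was left out it was 0.216 to 1.00. Its H3K4me2 (log2 difference 0.01) and H3K4me1 (-0.04) overlapped between the genotypes. Both H3K4me3 regions near S100a10 had a peak in all 6 libraries, and the lesser of them, downstream at chr3:93568026-93569556, had scores of 278, 253, and 171 in F/F and 119, 151, and 95.3 in FC/FC.

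S100a3, a protein of hair cuticle cells, had lower H3K4me2 in every FC/FC library. The RPKM was 6.28, 6.30, and 5.78 in F/F and 5.17, 4.35, and 5.13 in FC/FC (log2 difference -0.32 ± 0.08 (SE), limma adjusted p = 0.0733). After centring on library medians or quantile normalization the adjusted p was 0.040 in each, and without library NGS-6282 it was 0.014. Without any other library it was 0.152 to 0.249, and in a single fit of 18 libraries 0.185. Its start lay under H3K4me2 and H3K4me1 peaks in all 6 libraries and under no H3K4me3 peak. The region just upstream, chr3:90596969-90599184, had H3K4me2 scores of 948, 1034, and 1380 in F/F and 533, 830, and 994 in FC/FC, which overlap.

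S100a1, known from heart and skeletal muscle, and S100a13, which takes part in the release of proteins without a signal peptide, shared an H3K4me3 region over their starts, chr3:90513291-90516498, in all 6 libraries. S100a1 had H3K4me3 of 4.58, 4.50, and 4.59 in F/F and 4.17, 4.34, and 4.11 in FC/FC, which did not overlap (log2 difference -0.11, limma adjusted p = 0.990). S100a13 had 3.59, 3.26, and 3.43 in F/F and 3.51, 3.34, and 3.12 in FC/FC, which overlapped. Both overlapped between the genotypes in H3K4me1 and H3K4me2.

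S100a8, which forms the myeloid calprotectin complex with S100a9, and S100a16, a widely expressed member, carried little H3K4me2 or H3K4me3 over the measured transcripts. In F/F their H3K4me1 was above that of 82.3% and 67.2% of genes, and the S100a8 start lay under an H3K4me1 peak in 2 F/F and 3 FC/FC libraries. S100a8 had H3K4me1 of 1.28, 1.67, and 1.83 in F/F and 1.66, 1.37, and 1.44 in FC/FC, which overlapped, and was below the filter for the other marks. S100a16 was below the filter in all 3 marks, with H3K4me1 of 1.05, 0.984, and 1.21 in F/F and 0.939, 0.890, and 0.922 in FC/FC. No H3K4me3 peak lay within 10 kb of either gene. Upstream of the measured S100a16 transcript, an H3K4me2 region at chr3:90536912-90538242 had a peak in 3 F/F libraries (264, 136, and 378) and in 1 FC/FC library (63.1).

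S100a6 and S100a11 were the genes with higher values in every FC/FC library, in H3K4me1 and in H3K4me2. Over all genes tested, every FC/FC library was above every F/F library for 11.9% in H3K4me1 and 27.2% in H3K4me2. H3K4me1 of S100a6 was 2.84, 2.52, and 2.73 in F/F and 2.97, 3.51, and 3.02 in FC/FC (log2 difference 0.22 ± 0.07 (SE), limma adjusted p = 0.127). H3K4me2 of S100a11 was 9.07, 10.2, and 9.48 in F/F and 10.2, 10.6, and 10.9 in FC/FC (log2 difference 0.14 ± 0.05, adjusted p = 0.144). The other differences were smaller, 0.06 for S100a11 in H3K4me1 and 0.10 for S100a6 in H3K4me2, and neither passed. Across the settings, the H3K4me2 difference ran from 0.0072 to 0.10 in S100a6 and from 0.061 to 0.15 in S100a11.

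**Figure D4:**
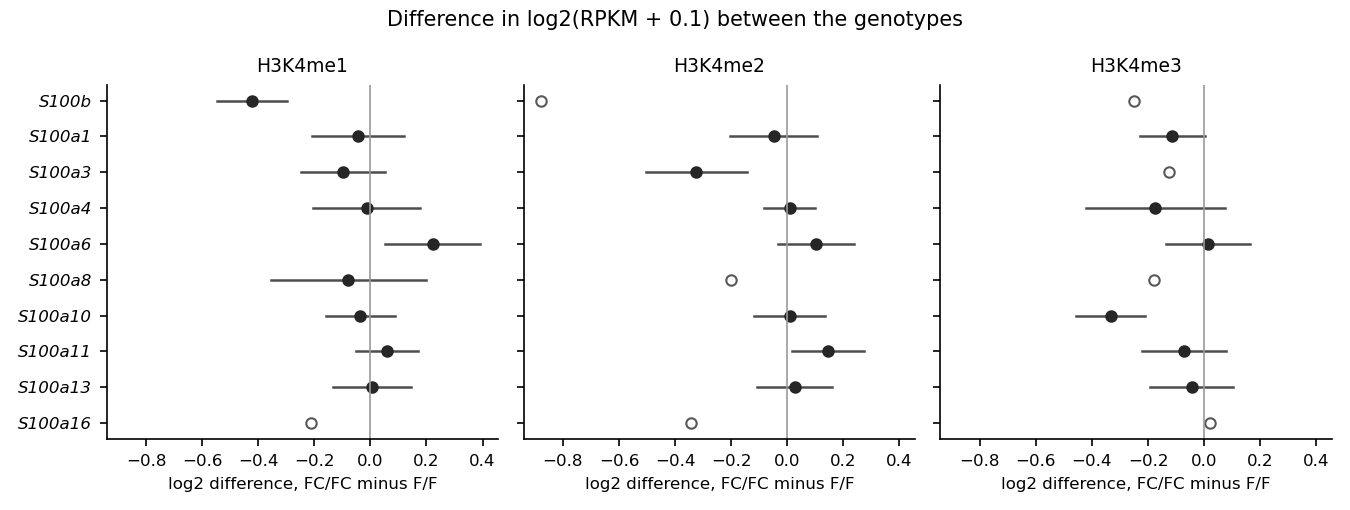
Difference in log2(RPKM + 0.1), FC/FC minus F/F, for each S100 gene (rows) and mark, with the 95% confidence interval of limma (filled points); open points were not tested, S100b in H3K4me2 because it chose the genes and the others because they were below the filter. The intervals of S100b in H3K4me1 (-0.55 to -0.30), S100a3 in H3K4me2 (-0.50 to -0.15), and S100a10 in H3K4me3 (-0.46 to -0.21) lie below 0. Those of S100a6 in H3K4me1 (0.05 to 0.39) and S100a11 in H3K4me2 (0.02 to 0.27) lie above 0. The intervals are not adjusted for the number of genes, and none of these genes passed after adjustment.

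No member passed the limma test in any mark. For H3K4me1, 9 of the 10 genes were tested (all but S100a16) and 0 were called, against 0.0% of 8565 genes. At an unadjusted p under 0.05 there were 2 (S100b and S100a6) of the 9 and 2142 of all. With limma-voom S100b was called, as were 584 genes lower and 119 higher over all genes. With the block by the order of library numbers S100b was again the only member called, and over all genes there were 1106 lower and 692 higher. Every FC/FC library was below every F/F library for 1 of the 9 (18.6% of all genes) and above for 2 (11.9%). The median log2 difference was -0.04 over the 9 and -0.0028 over all genes tested.

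For H3K4me2, 8 genes passed the filter and S100b was set aside, which left 7 tested (all but S100a8 and S100a16) with 0 called, against 2.12% of 9986 genes (154 lower and 58 higher). Over all genes the calls were 406 lower and 27 higher after centring on library medians, 337 and 27 after quantile normalization, and 846 and 2117 without library NGS-6282. Without any other single library there were 0 to 18 lower and 0 higher. At an unadjusted p under 0.05 there were 2 (S100a3 and S100a11) of the 7 and 2902 of all, and limma-voom called 0. Every FC/FC library was below every F/F library for 1 of the 7 (8.43% of all genes) and above for 2 (27.2%). The median log2 difference was 0.01 over the 7 and 0.07 over all genes tested.

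For H3K4me3, 6 genes were tested (all but S100b, S100a3, S100a8, and S100a16) and 0 were called, against 0.0% of 9072 genes. At an unadjusted p under 0.05 there was 1 (S100a10) of the 6 and 338 of all, and limma-voom called 0. Every FC/FC library was below every F/F library for 2 of the 6 (3.87% of all genes) and above for 0 (3.42%). The median log2 difference was -0.09 over the 6 and 0.01 over all genes tested.

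For the other marks, lost and gained regions were counted in the same way. Of 29 H3K4me1 regions, 20 had a peak in all 6 libraries, 0 were lost (0.768% of the 82700 regions within 10 kb of a gene) and 0 were gained (0.443%). Of 7 H3K4me3 regions, 0 were lost and 0 gained (0.462% and 0.0533% of 16875), and all 7 had a peak in all 6 libraries. An H3K4me1 region beyond the 3′ end of S100a13, chr3:90525014-90527429, had a peak in 3 F/F libraries and 1 FC/FC library, NGS-6281, and without that library it was the only lost region. Without library NGS-6293 the only lost one was upstream of S100a16.

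Of 8 other S100 genes listed, 7 were in the tables, among them S100a2, S100a5, and S100a14 of the same cluster. For H3K4me1, 4 were tested, 0 were called in either direction, and all 4 had negative differences (median -0.29). The smallest p was that of S100a5, with 2.59 ± 0.138 in F/F and 2.09 ± 0.103 in FC/FC (limma adjusted p = 0.0675). For H3K4me2, S100a7a alone was tested (1.88 ± 0.592 and 1.395 ± 0.250, adjusted p = 0.259), and for H3K4me3 none. Below the filter, S100a2 had H3K4me2 of 0.814, 1.11, and 0.975 in F/F and 0.393, 0.531, and 0.649 in FC/FC, a log2 difference of -0.78 with no overlap. S100a5, S100a9, and S100a14 were also lower in every FC/FC library in H3K4me2 (log2 differences -0.37, -0.43, and -0.46), and none of these was tested. S100a7a, S100g, and S100z overlapped between the genotypes. Of all genes tested for H3K4me2, 8.43% were lower in every FC/FC library. S100a2, S100a5, S100a9, and S100a14 were below that filter, and the share among such genes was not computed. The means of S100a9 (0.127 in F/F and 0.0673 in FC/FC) and S100a14 (0.155 and 0.0873) were near the pseudocount of 0.1. S100a9, the partner of S100a8, had no more than 0.322 RPKM on average in either genotype and any mark.

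Of 7 S100-fused epidermal genes, which join an S100 domain to long repeats and lie beside the S100 genes, 6 were in the tables and 1, Tchh (trichohyalin), was tested. It was higher in every FC/FC library in all 3 marks, with H3K4me2 of 7.21 ± 0.320 in F/F and 8.21 ± 0.770 in FC/FC, but did not pass in any (limma adjusted p = 0.0993, 0.160, and 0.894 in the order H3K4me1 to H3K4me3). Of 20 genes for S100 partners and receptors, 18, 17, and 17 were tested for H3K4me1, H3K4me2, and H3K4me3, and 0 were called in either direction of any mark, with medians of -0.02, 0.05, and -0.01. The smallest p on the lower side was that of Anxa11, an annexin gene, in H3K4me1 (2.08 ± 0.142 and 1.79 ± 0.139, adjusted p = 0.128) and in H3K4me2 (1.63 ± 0.0862 and 1.39 ± 0.0469, adjusted p = 0.0747). For H3K4me3 it was Anxa2, the partner of S100a10 (2.04 ± 0.200 and 1.86 ± 0.0524, adjusted p = 0.990). On the higher side it was Hsp90aa1, a chaperone gene, in H3K4me1 (2.16 ± 0.0736 and 2.54 ± 0.0416, adjusted p = 0.0720), and Mdm2, the p53 ubiquitin ligase gene, in H3K4me2 (4.12 ± 0.372 and 5.40 ± 0.664, adjusted p = 0.0865) and in H3K4me3 (7.60 ± 0.328 and 8.10 ± 0.494, adjusted p = 0.990).

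Beside the chromosome 3 genes, the nearest other genes to the left, Chtop and Snapin, did not pass in any mark (adjusted p 0.227 or higher), and Tdpoz2 and Tdpoz1 to the right were below the filter.

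Fibroblast genes carried H3K4me3 in these cells. Of 12 fibroblast markers, 10 had a mean H3K4me3 above 1 RPKM in F/F, led by Twist1 (22.2) and Vim (22.2). Of the glial and melanocyte markers, the cell types in which S100b is best known, Sox10 was at 0.200 and Gfap at 0.232 in H3K4me3, and their part in the S100b values was not tested. Of 10 myeloid markers, 1 was above 1 in H3K4me3 (Cd14, 8.72), with Ptprc at 0.131. Adipocyte and chondrocyte markers had 1 of 10 above 1 (Sox9, 8.51) and epithelial and keratinocyte markers 1 of 10 (Lor, 1.11). The epithelial gene Cdh1 (E-cadherin) had a mean H3K4me2 of 1.19 RPKM in F/F and 0.818 in FC/FC. It passed the filter only through F/F, so its test is not given. With Cdh1 in H3K4me2 set aside, none of the tested markers of these lists was called.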

How the data were processed

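Of 52 samples, the 18 H3K4me1, H3K4me2, and H3K4me3 libraries were used, grouped by their labels, and 34 (H3, γH2AX, H2AX, IgG, and RNAPII) were not used here. The authors deposited RPKM for 28748 mouse transcripts extended by 500 bp on each side, and peaks called against an H3 library with a score of -10 times the log10 of the MACS p-value. The submitters' processing notes name CASAVA 1.4, BWA 0.7.10, and MACS 1.4.2. A column that marks genes changed in γH2AX holds the authors' own comparison and was not used. Transcripts under 250 bp (1352) were left out and 1 was kept per gene: the one in the study's gene table where the gene was in it (411 genes), otherwise the longest, and the longest for the S100 genes. Values were whole multiples of 1 read in 100% of cases within a tolerance of 0.01. Differences were tested with limma 3.58.1 (R 4.3.3) on log2(RPKM + 0.1) within each mark, for genes above 1 RPKM in 3 of 6 libraries, after tests on simulated data. Peaks of the libraries of a mark that overlapped were merged into regions. Python 3.11.15, pandas 2.3.3, numpy 2.4.6, scipy 1.17.1, and matplotlib 3.10.9 were used. Outside the S100 genes, the genes named are those of lowest p per list and direction, the nearest genes, the 5 genes most like S100b, and defining markers. The genes and lists were chosen with earlier results of these data known. Alternatives were the pseudocount, filter, transcript, scaling, model, replicate block, peak score, overlap, and window, and leaving out each library. The series gives the cultures as independent, but they are of 1 line, so p-values measure the spread between these cultures. Some glial marker values are not reported here.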

Additional observations from a re-analysis of the deposited data

How the results depend on the processing

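The number of S100 genes called for H3K4me1 went from 0 to 1 (S100b) with quantile normalization, centring on medians, 1 fit of 18 libraries, limma-voom, and the replicate block, for H3K4me2 from 0 to 1 (S100a3) with quantile normalization and centring, and for H3K4me3 from 0 to 1 (S100a10) with 1 fit of 18 libraries and the replicate block. When 1 library was left out it was 0 to 0 for H3K4me1, 0 to 1 for H3K4me2, and 0 to 0 for H3K4me3. Lost regions went from 0 to 1 for H3K4me1 with the same number of peaks per library and with 50% cover (0 to 1 when 1 library was left out), and from 1 to 2 for H3K4me2 at scores of at least 100 (1 to 3). The difference in bases under peaks near S100b was -2052 for H3K4me2 with the same number of peaks and -1770 within 20 kb, where that of H3K4me3 was -11.3 and that of H3K4me1 -1335. When 1 library was left out it was -2445 to -1588 for H3K4me1, -2602 to -2350 for H3K4me2, and 0 to 0 for H3K4me3. The log2 difference of S100b in H3K4me2 was -0.51 with a pseudocount of 1, and leaving out an F/F library gave none where S100b then missed the filter.

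Differences near 0 changed sign. With quantile normalization S100a4 was at 0.061 for H3K4me1, and S100a4, S100a10, and S100a13 at -0.080, -0.062, and -0.040 for H3K4me2, which centring put at -0.046, -0.047, and -0.029. When 1 library was left out, H3K4me1 ran from -0.11 to 0.058 in S100a4, -0.22 to 0.024 in S100a8, and -0.041 to 0.045 in S100a13. H3K4me2 ran from -0.0061 to 0.025 in S100a4, -0.025 to 0.045 in S100a10, and -0.024 to 0.068 in S100a13, each lowest without library NGS-6282. H3K4me3 ran from -0.030 to 0.045 in S100a6.

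Calls over all genes for H3K4me1 went from 0 to 60 lower and 15 higher with quantile normalization, 71 and 16 with centring, 149 and 127 in 1 fit, and 584 and 119 with limma-voom, and for H3K4me3 to 23 and 7 in 1 fit. For H3K4me2 they were 306 and 129 in 1 fit, 261 and 104 with limma-voom, and 383 and 68 with no filter. The labels give no replicate numbers. By the order of library numbers, deviations of the paired libraries correlated at 0.54, 0.28, and 0.44 (H3K4me1), 0.59, 0.71, and -0.49 (H3K4me2), and 0.63, 0.72, and -0.22 (H3K4me3). The replicate block on this order gave 1106 lower and 692 higher for H3K4me1. For H3K4me2 it gave 165 and 32, and for H3K4me3 26 and 22. The cause of these changes was not tested.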
